A study of Mus musculus with 74 samples.

Results

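The genes encoding the protein components of the cytoplasmic ribosome were followed from primary mammary tumors (PT) to lung metastases (Lung met) in mouse models. Members were chosen by name, as every listed gene called Rpl or Rps followed by a digit, Rplp0, Rplp1, Rplp2 or Rpsa, leaving out names with -ps and the Rps6k kinases. The rule found 91 genes among 22080 gene names listed over 5 deposited comparisons. Of these, 77 are core ribosomal proteins (31 of the small 40S subunit and 46 of the large 60S subunit), 6 are paralogs, 7 are retrotransposed copies, and 1, Rps19bp1, encodes a binding partner of Rps19 and is not part of the ribosome.

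The ribosome translates every messenger RNA of the cytoplasm. Its small subunit decodes the message and its large subunit joins the amino acids. The component proteins are needed in equal numbers, apart from the stalk proteins, and their messages carry a pyrimidine tract at the start through which mTOR signaling adjusts their translation as a group. Growing tumor cells make ribosomes in quantity, so that these messages are among the most abundant in mammary tumors.

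The series held 74 samples of bulk tumor tissue from female mice, profiled by RNA-seq. Her2 mice carry rat neu and Myc mice carry Myc, each under the MMTV promoter, which is active in mammary epithelium, and C3Tag mice carry the SV40 T antigen under the C3(1) promoter, all on the FVB/NJ background. PyMT-F1 mice are offspring of FVB males with MMTV-PyMT and females of AKR/J, BALB/cJ or SEA/GnJ, so that all 3 crosses share 1 parent and the transgene. Each model had 6 PT and 6 Lung met samples by its labels, except for C3Tag with 7 of each. The sample titles pair a PT and a Lung met of the same mouse throughout, so that these are 6 or 7 mice per model. The PT pieces of a mouse were combined and ground, and metastases were used whole. Per the study's methods, PT of Her2, C3Tag and Myc mice with a single lesion were removed by surgery while still small, and these mice were then kept until metastases were collected, whereas PyMT-F1 mice kept their tumors until the end. The ages were not used here. One of the comparisons was deposited under AKR, and which cross it describes was not settled here, so that it is called the comparison deposited under AKR. The Myc comparison was deposited without group means and was not analysed here.

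Each comparison gave 2 numbers for a gene, the authors' mean of normalized counts over the PT samples and over the Lung met samples, with no value for single samples. The log2 ratio of the Lung met mean over the PT mean is therefore given without an error. Whether a ratio exceeded the spread between animals could not be tested, the depth of the libraries is unknown, and no p-value was computed. A gene is counted as past the fold when its means differed by at least 1.5-fold. In bulk tissue, fewer cells of a type and less RNA per cell cannot be told apart.

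All 91 members had means in Her2, C3Tag and the comparison deposited under AKR, and 77 had means in BALB and SEAGN. The other 14, among them Rpl6, Rpl10, Rpl27, Rpl29, Rpl41 and Rps27 of the core set, were not listed under these names there. All 91 were placed in the GENCODE M21 annotation of GRCm38, where 84 are annotated as protein coding and 7 as pseudogenes. The core members lie on 19 chromosomes.

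Because messages of these genes are known for a pyrimidine tract at the start, annotated start sites were compared first. RefSeq windows of GRCm38.p6 matched 57 of the 77 core members. A run of at least 6 bases of C or T that held the annotated start base was found on the gene's strand in 19 of them (33.3%), against 8.48% of the 27025 genes with a window and 2.90% of 69 mitochondrial ribosomal protein genes. For a gene with several annotated starts, the start with the longest run was taken. Windows of 6 genes are shown, from 15 bases before the start to 14 after it, because they belong to members with long runs (Rpl7a, whose run was the longest of the 57, and Rpl35), to the core members past 1.5-fold in some comparison (Rplp2 and Rpl38) and to a pair of paralogs that differ here (Rps27 and Rps27l). Capitals mark the run that holds the start base.
Rpl7a: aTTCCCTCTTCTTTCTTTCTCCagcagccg
Rpl35: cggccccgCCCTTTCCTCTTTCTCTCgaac
Rplp2: tgcgtcagcgTCTTCCTTTCgccgccggac
Rpl38: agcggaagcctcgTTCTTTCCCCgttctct
Rps27: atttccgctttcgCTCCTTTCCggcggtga
Rps27l: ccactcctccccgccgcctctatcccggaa
The windows lie at chr2:26910792-26910821 on the plus strand for Rpl7a, chr2:39005117-39005146 on the minus strand for Rpl35, chr7:141447636-141447665 on the plus strand for Rplp2, chr11:114668565-114668594 on the plus strand for Rpl38, chr3:90213634-90213663 on the minus strand for Rps27 and chr9:66946071-66946100 on the plus strand for Rps27l. The run spans 21 bases in Rpl7a, 18 in Rpl35, 10 in Rplp2, 10 in Rpl38 and 9 in Rps27, while the annotated start base of Rps27l is not C or T. A match describes the letters at an annotated start and is not a mapped start site.

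As a group, the ribosomal protein genes had median log2 ratios near 0 in Her2, C3Tag and SEAGN. BALB and the comparison deposited under AKR had higher medians. In Her2 their median log2 ratio was -0.06, with an interquartile spread of 0.13 over the members and extremes of -0.34 and 0.11. In C3Tag the median was 0.05, spread over 0.11, and its sign turned to -0.01 when the ratio of summed means without the 10 genes of highest mean was subtracted. The medians were 0.11 in BALB and 0.05 in SEAGN, with spreads of 0.08 and 0.15. The comparison deposited under AKR had the highest median, 0.20, and the widest spread, 0.29, with extremes of -0.51 and 1.66. Genes with both means of at least 1000 had medians of 0.07 in BALB and 0.04 in SEAGN. Their medians were 0.01 in Her2, 0.01 in C3Tag and -0.01 in the comparison deposited under AKR.

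The members leaned to 1 direction within each comparison. In Her2, 21 of 91 members had a higher mean in Lung met, against 67 of 91 in C3Tag, 69 of 77 in BALB, 55 of 77 in SEAGN and 77 of 91 in the comparison deposited under AKR. Over all genes the median log2 ratio lay within 0.03 of 0 in every comparison, and between 49.7% (Her2) and 55.3% (BALB) were higher. Among genes with both means of at least 1000, 52.9% were higher in Her2, 52.6% in C3Tag, 68.7% in BALB, 60.2% in SEAGN and 48.8% in the comparison deposited under AKR. The members' shares, in the same order, were 23.1%, 73.6%, 89.6%, 71.4% and 84.6%.

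**Figure D1:**
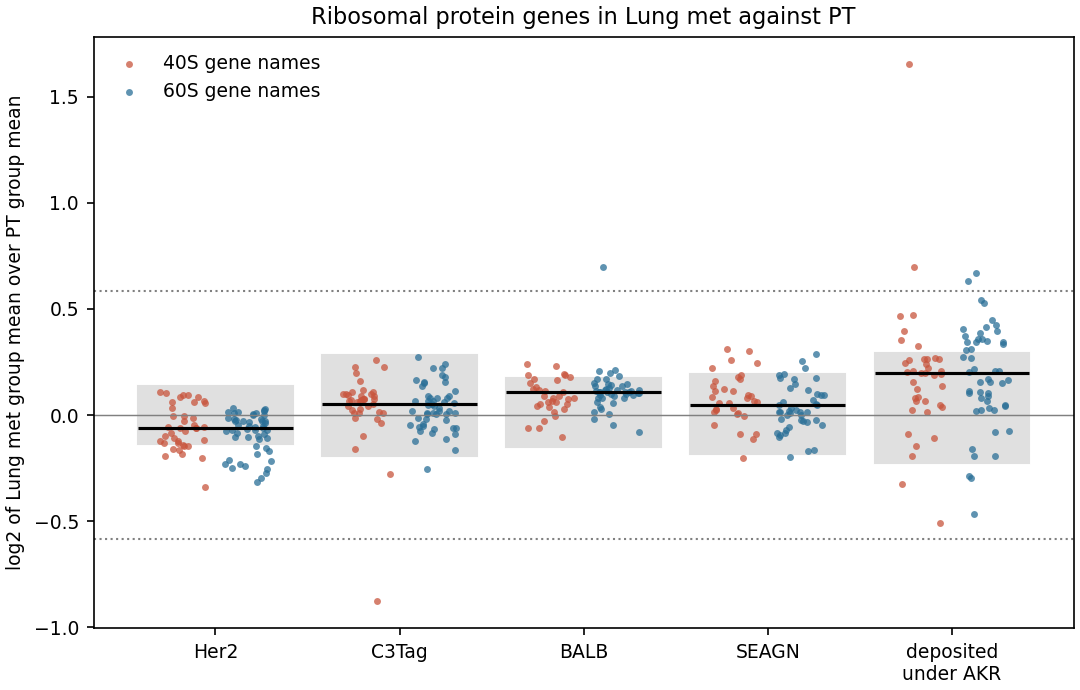
Each point is 1 ribosomal protein gene, with the log2 of its Lung met over its PT group mean on the vertical axis and the deposited comparison on the horizontal axis. Black lines are the medians of the members, grey boxes the interquartile range of all genes and dotted lines the 1.5-fold limits; most members lie inside the limits, and the points spread most widely in the comparison deposited under AKR.

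Few members passed the 1.5-fold limit. In Her2 none did, in either direction, where 5.42% of all genes were higher and 3.62% were lower by that fold. In C3Tag no member was higher, against 14.0% of all genes, and 1 of 91 was lower, against 5.61%. In BALB 1 of 77 was higher, against 6.20%, and none was lower, against 6.76%. In SEAGN none was higher, against 7.11%, and none was lower, against 8.32%. In the comparison deposited under AKR 4 of 91 were higher, against 13.6%, and none was lower, against 6.32%.

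The members were also compared at a narrower limit of 0.32 on the log2 scale. In Her2 none was higher by that much, against 11.1% of all genes, and 1 of 91 was lower, against 9.10%. In C3Tag none was higher, against 22.9%, and 1 of 91 was lower, against 14.8%. In BALB 1 of 77 was higher, against 13.6%, and none was lower, against 14.2%, and in SEAGN none was higher or lower, against 15.2% and 16.6%. Among genes with both means of at least 1000, 94.0% in Her2, 76.5% in C3Tag, 87.6% in BALB and 86.8% in SEAGN lay inside this limit, where at least 98.7% of the members did. The comparison deposited under AKR differed, with 63 of 91 members (69.2%) inside it beside 76.0% of abundant genes. There 25 members were higher, against 23.3% of all genes, and 3 were lower, against 17.0%. The shares describe the tables, and the spread of single animals behind them was not tested.

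Small and large subunit genes were set side by side without a test. The median log2 ratio of the 40S and 60S core members was -0.06 and -0.06 in Her2, 0.07 and 0.02 in C3Tag, 0.09 and 0.11 in BALB, 0.06 and 0.02 in SEAGN, and 0.20 and 0.17 in the comparison deposited under AKR. In C3Tag 83.9% of the 40S and 65.2% of the 60S core members were higher in Lung met. The medians of members with and without the pyrimidine run at the start were also close, at -0.05 and -0.06 in Her2, 0.05 and 0.04 in C3Tag, 0.09 and 0.11 in BALB, and 0.02 and 0.03 in SEAGN. In the comparison deposited under AKR they were 0.21 for 19 members with the run and 0.11 for 38 without it.

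The share of the summed group means held by the members gives the size of the pool. It was 2.56% in PT and 2.40% in Lung met of Her2, 1.85% and 1.94% in BALB, 1.80% and 1.85% in SEAGN, and 3.92% and 4.11% in the comparison deposited under AKR. The BALB and SEAGN shares cover only the 77 members listed there. They leave out abundant members such as Rpl41, at 24842 in PT of Her2. In C3Tag the share was 0.739% in PT and 1.35% in Lung met. A single entry, Gm22614, made up 38.3% of the C3Tag PT sum and 0.000194% of the Lung met sum. Without the 10 genes of highest mean, the share was 1.42% in both C3Tag tissues.

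Among small subunit members, Rpsa, the laminin-binding uS2 protein, had a higher Lung met mean in all 5 comparisons. Its PT and Lung met means were 21150 and 22422 in Her2, 12044 and 12585 in C3Tag, 5954 and 6703 in BALB, 5236 and 5934 in SEAGN, and 39331 and 46448 in the comparison deposited under AKR. These are log2 ratios of 0.08, 0.06, 0.17, 0.18 and 0.24. Levels cannot be set against each other across comparisons, which were normalized separately.

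In all, 11 of the 77 members listed in every comparison (14.3%) were higher in Lung met in each of them, against 11.6% of all 12317 genes so listed, so that the members' share is near the background. They included Rps3, Rps3a1, Rps15, Rps26, Rpl7a, Rpl28 and Rpl31. Among the highest in Her2 were Rps3a1, at 21439 in PT and 23065 in Lung met (log2 ratio 0.11), and its copy Rps3a3, at 679 and 725 (0.10). Rps15, a small subunit protein near the decoding site, stood at 0.47 in the comparison deposited under AKR, as the heatmap shows. Of the 77 members listed in all 5 comparisons, 29 were higher in 4 and 22 were higher in 3.

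**Figure D2:**
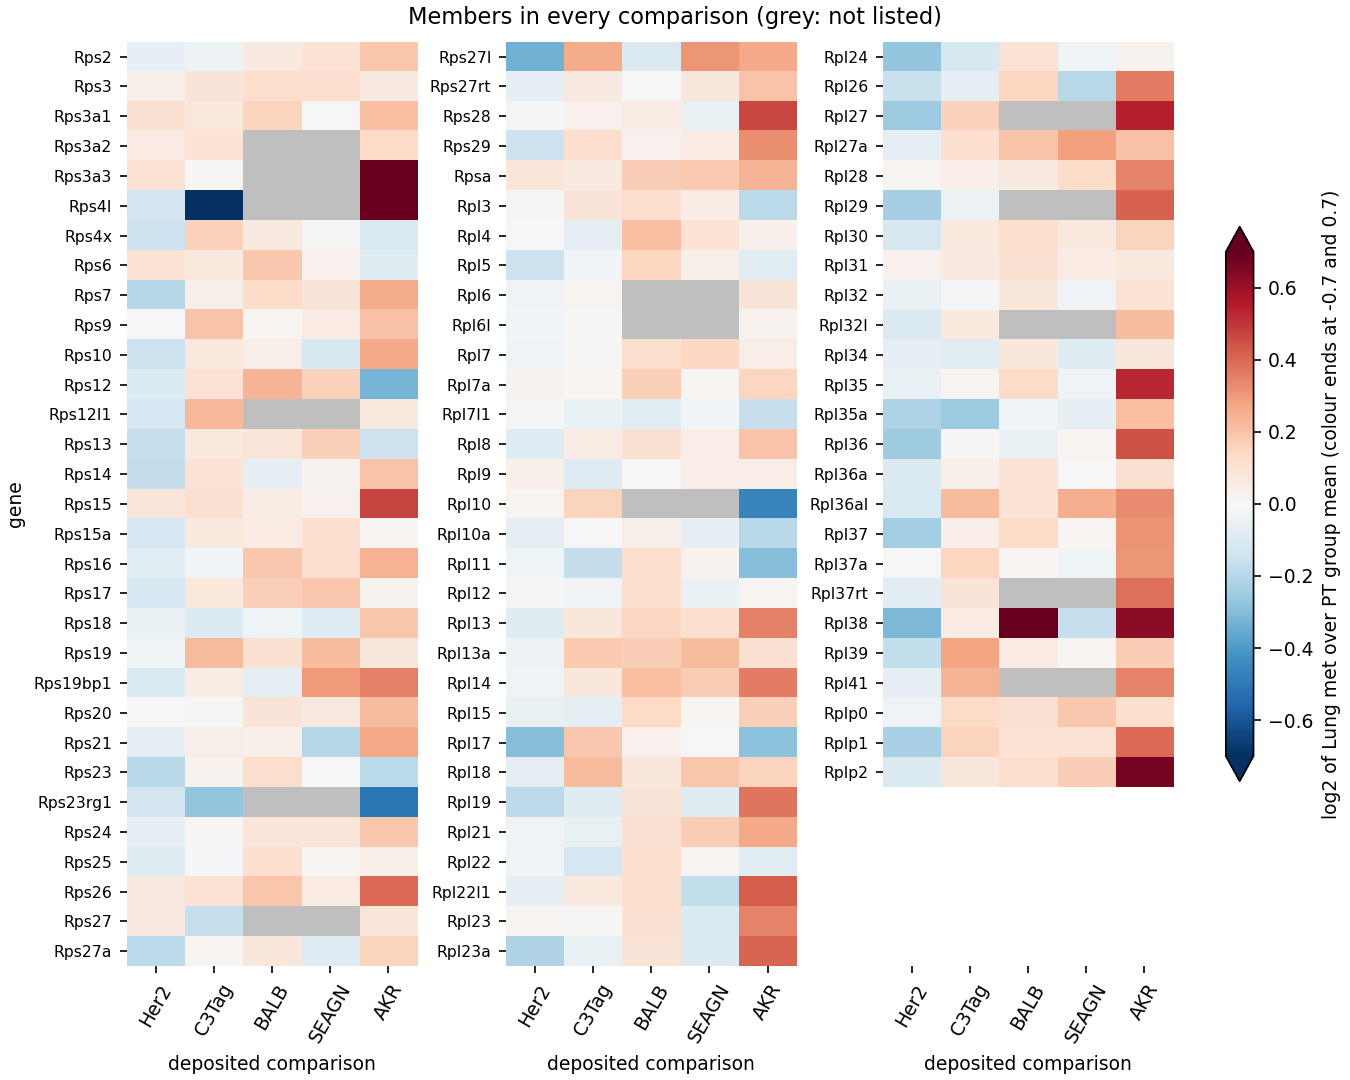
The log2 of Lung met over PT group mean is drawn as colour for the members reported here (rows, in 3 blocks) in each deposited comparison (columns), red for higher in Lung met and blue for lower, with grey for genes not listed. The Her2 column is mostly pale blue and the BALB column mostly pale red, apart from Rpl38 at 0.70. The column for the comparison deposited under AKR holds several deep colours, such as Rpl38 at 0.63 and Rpl10 at -0.47.

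Among the small subunit members at the ends of a comparison, Rps12 had one of the highest ratios in BALB. It stood at 438 in PT and 517 in Lung met (0.24) there but went from 1145 to 915 (-0.32) in the comparison deposited under AKR. Rps21, a small surface protein, had the lowest ratio in SEAGN, from 300.2 to 261 (-0.20).

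The core large subunit members at the ends were Rpl38, Rpl17, Rpl26, Rpl27a, Rpl35a, Rpl39, Rpl41, Rpl10 and Rplp2. The paralogs Rpl7l1 and Rpl22l1 were also at the ends and are described below with Rplp2. Rpl17, at the exit of the peptide tunnel, went from 1001 to 814 in Her2 (-0.30). Rpl39, a short protein lining the same tunnel, went from 2929 to 3543 in C3Tag (0.27), and Rpl41, the smallest ribosomal protein, from 6124 to 7232 (0.24). Rpl35a, mutated in some forms of Diamond-Blackfan anemia, went from 600.1 to 502 in C3Tag (-0.26).

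In SEAGN, Rpl26, which binds the Trp53 message, went from 750.5 to 655 (-0.20) and Rpl27a from 1785 to 2180 (0.29). Rpl10, which completes the subunit joining surface, went from 1127 to 816 (-0.47) in the comparison deposited under AKR, beside 0.02 in Her2 and 0.15 in C3Tag.

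The acidic stalk recruits elongation factors and is built from Rplp0 with dimers of Rplp1 and Rplp2. Rplp0 had log2 ratios of -0.03 in Her2, 0.14 in C3Tag, 0.11 in BALB, 0.19 in SEAGN and 0.11 in the comparison deposited under AKR. Rplp1 gave -0.23, 0.16, 0.10, 0.10 and 0.40 in the same order. Rplp2 gave -0.10, 0.08, 0.13, 0.17 and 0.67, the last from means of 2783 in PT and 4432 in Lung met. All 3 were thus lower in Lung met of Her2 and higher in the other comparisons. In the comparison deposited under AKR, Rplp2 was past the 1.5-fold limit and its 2 partners were not.

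Rpl38, a large subunit protein known for its part in translating Hox messages, was the core member with the largest range over comparisons, 1.01 on the log2 scale. It went from 648 in PT to 1049 in Lung met of BALB (0.70) and from 1218 to 1888 in the comparison deposited under AKR (0.63). It was lower in Lung met of Her2, at 1097 and 882 (-0.31), and of SEAGN, at 627 and 560.2 (-0.16), and near equal in C3Tag, at 586 and 610.4 (0.06). With Rps4l, it was 1 of only 2 members past the 1.5-fold limit in more than 1 comparison.

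Position on the chromosome was a feature that the choice of members did not use. For each core member, the other genes within 5 Mb on either side in GENCODE M21 with both means of at least 10 were collected, an analysis chosen after the data were seen. Around Rpl38, on chromosome 11 at 114668524 to 114672331 of GRCm38, 103 of 112 such genes had a higher Lung met mean in BALB, and their median log2 ratio was 0.58. The medians around Rpl38 were -0.04 in Her2, 0.06 in C3Tag, -0.07 in SEAGN and 0.19 in the comparison deposited under AKR. Rpl38 in BALB was therefore 1 of a run of neighbouring genes with raised means.

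Along the same chromosome, the raised stretch of BALB began about 15 Mb before Rpl38. The median of other genes in 2.5 Mb bins was -0.02 at 17.5 Mb before it, 0.22 at 15 Mb, 0.33 at 7.5 Mb and 0.44 at 5 Mb. It was 0.66 in the bin at Rpl38, where 35 of 35 genes were higher, 0.59 at 2.5 Mb and 0.53 at 5 Mb beyond, and -0.07 at 7.5 Mb beyond. The last 7.5 Mb bin held 17 genes. In the comparison deposited under AKR, the bin at Rpl38 had a median of 0.40 with 37 of 43 genes higher, and the bin 2.5 Mb beyond it stood at -0.002.

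**Figure D3:**
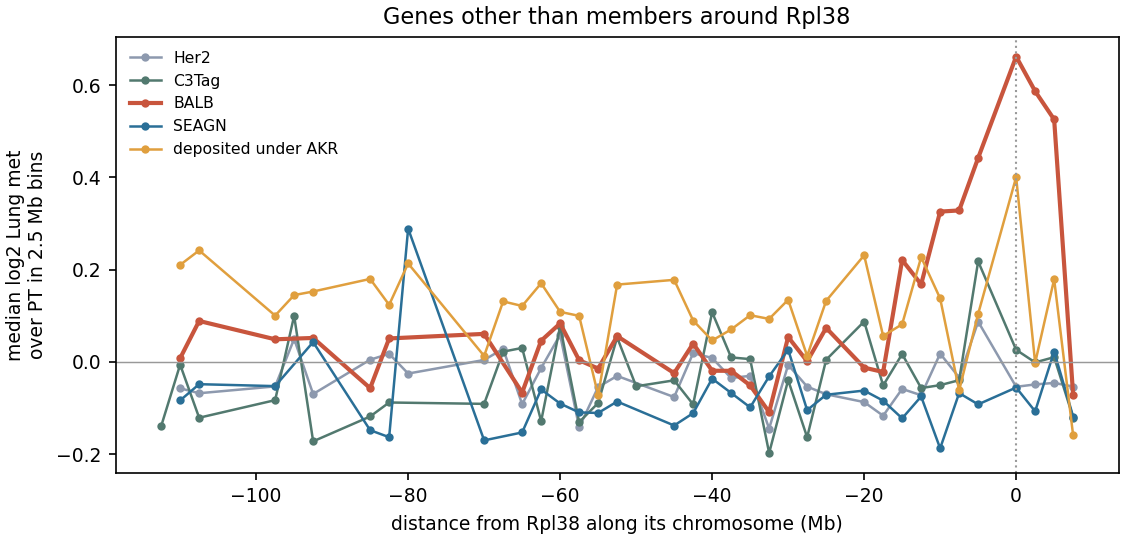
The median log2 of Lung met over PT group mean of genes other than members is plotted in 2.5 Mb bins against the distance from Rpl38 in Mb, 1 line per deposited comparison, leaving out bins of under 10 genes. The BALB line climbs from near 0 to 0.66 at Rpl38 and falls to -0.07 at 7.5 Mb beyond it, while the Her2 and SEAGN lines stay near or below 0 there.

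Other translation and respiration genes named by the same rule lie in this stretch. Mrps7, a mitochondrial small subunit protein 0.936 Mb from Rpl38, had log2 ratios of 0.82 in BALB and 0.82 in the comparison deposited under AKR. Atp5h, an ATP synthase subunit 0.747 Mb away, had 0.76 and 1.10, and Mrpl12, a mitochondrial large subunit protein 5.82 Mb away, had 0.71 and 0.78. Mrpl58, a mitochondrial peptide release factor 0.738 Mb away, had 0.94 in the comparison deposited under AKR and was not listed in BALB. In Her2 all 4 had log2 ratios between -0.16 and -0.02, and in C3Tag between -0.26 and -0.12. In SEAGN, Mrpl12 had 0.21, Mrps7 0.07 and Atp5h -0.05. These genes were named for ratios far from 0, so that they are not independent of the values around Rpl38.

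In SEAGN, members and other genes are described on 2 chromosomes, 7 and 11, picked after the data were seen. Member and other-gene medians shared a sign on other chromosomes too, such as 8 (0.10 and 0.05) and 16 (-0.04 and -0.07). On chromosomes 2, 6 and 13 their signs differed. In SEAGN, all 14 core members of chromosome 7 were higher in Lung met, with log2 ratios from 0.06 to 0.29. All 6 of chromosome 11 were lower, from -0.20 to -0.08. The ranges of the 2 chromosomes did not overlap. Genes other than members showed the same order on these chromosomes, with 70.6% of 925 higher on chromosome 7 (median 0.12) and 36.0% of 1089 higher on chromosome 11 (median -0.08). The highest chromosome 7 member was Rpl27a, whose neighbours had a median of 0.26, and the lowest chromosome 11 member was Rpl26, whose neighbours had a median of -0.12. Over all core members of SEAGN, 51 of 71 were higher. The direction on chromosome 7 was not particular to SEAGN. Of its 14 core members, 14 were higher in BALB, 13 in C3Tag, 13 in the comparison deposited under AKR and 3 in Her2. On chromosome 11, 6 of 6 were higher in BALB and 4 of 7 in C3Tag.

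On the same chromosome 11, 6 of 7 core members were lower in Lung met of Her2, with a median of -0.18, and 7 of 7 were higher in the comparison deposited under AKR, with a median of 0.37. Over all core members, 58 of 77 were lower in Her2 and 65 of 77 were higher in the comparison deposited under AKR. Other genes of chromosome 11 had medians of -0.05 and 0.11 there. On some other chromosomes of the comparison deposited under AKR, members and other genes differed in direction. Member medians were 0.14 on chromosome 7, 0.31 on chromosome 8 and 0.30 on chromosome 9, beside -0.04 for the other genes of each. The medians shared a sign on others, such as 2 (0.21 and 0.02), 4 (-0.07 and -0.06) and 15 (0.18 and 0.07). Across core members, the log2 ratio of a member and the median of its neighbours were correlated with a Pearson r of 0.43 in Her2 (n = 77), 0.51 in C3Tag (n = 77), 0.69 in SEAGN (n = 71) and 0.24 in the comparison deposited under AKR (n = 77). In BALB it was 0.72 (n = 71), and 0.31 without Rpl38. The Spearman rho was 0.43, 0.55, 0.71, 0.21 and, in BALB, 0.32. Members close together share neighbours and are not independent, so that these values are descriptions.

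**Figure D4:**
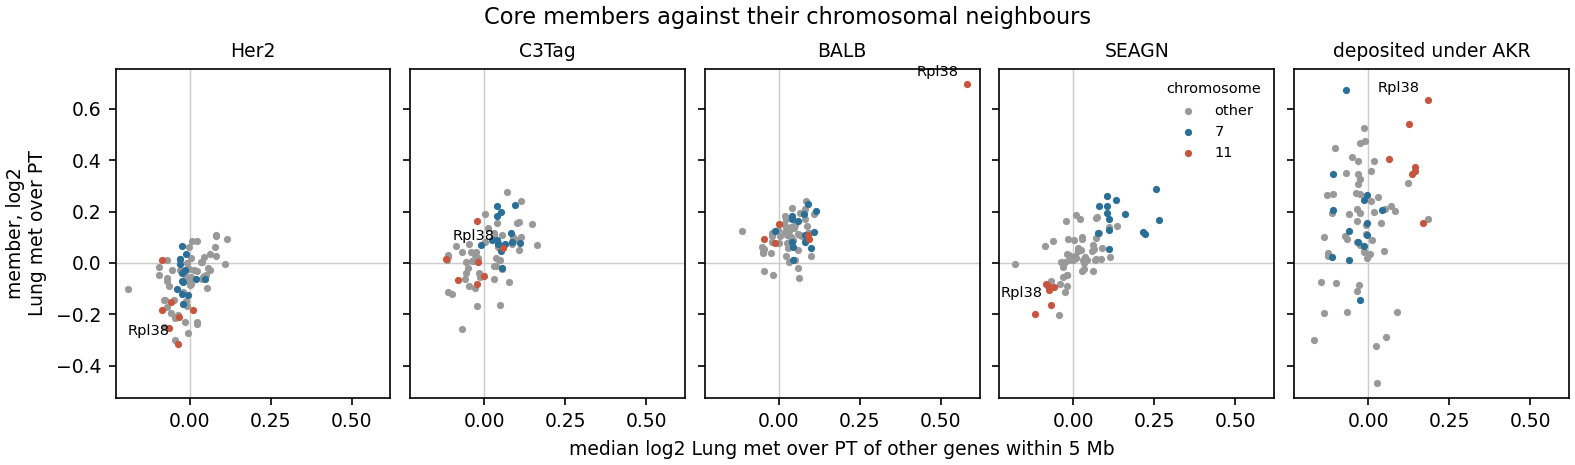
Each point is 1 core member, with its own log2 ratio of Lung met over PT group mean on the vertical axis and the median log2 ratio of other genes within 5 Mb on the horizontal axis, in 1 panel per deposited comparison. Members of chromosomes 7 (blue) and 11 (red) separate in the SEAGN panel, and Rpl38 stands alone at the upper right of the BALB panel.

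Paralogs replace a core protein in some tissues. Rps27l, a paralog of Rps27 that is a known p53 target, lay at the low end of some comparisons and at the high end of others. It went from 3089 in PT to 2443 in Lung met of Her2 (-0.34), the lowest member there, and from 507 to 473 in BALB (-0.10), also the lowest. It was among the highest in C3Tag, at 844 and 1009 (0.26), and the highest in SEAGN, at 385 and 477 (0.31), with 0.27 in the comparison deposited under AKR.

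Rpl7l1, a paralog of Rpl7 linked to ribosome assembly, was the only 1 of the 77 members (1.30%, against 6.29% of all genes) with a lower Lung met mean in all 5 comparisons, at log2 ratios of -0.01, -0.05, -0.08, -0.02 and -0.16 in Her2, C3Tag, BALB, SEAGN and the comparison deposited under AKR. Its parent Rpl7 had -0.03, 0.01, 0.11, 0.15 and 0.04. Rpl22l1, a paralog of Rpl22, gave -0.06, 0.07, 0.11, -0.17 and 0.43, and Rpl36al, a paralog of Rpl36a, gave -0.11, 0.22, 0.09, 0.26 and 0.33. Rps19bp1, which is no ribosomal protein, had -0.11, 0.05, -0.06, 0.30 and 0.35.

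Rps4l, a retrotransposed relative of Rps4x, had the largest ratios of any member but on low means. It went from 54.3 to 29.6 in C3Tag (-0.88), from 20.9 to 65.9 in the comparison deposited under AKR (1.66) and from 19.2 to 17.5 in Her2 (-0.13). Its parent Rps4x stood at 33875 in PT and 31412 in Lung met of the comparison deposited under AKR. Rps23rg1, a copy of Rps23, was also low, at 105 and 86.9 in C3Tag (-0.28) and 88.1 and 61.8 in the comparison deposited under AKR (-0.51). Most core members had higher means, although Rps27 and Rpl29 were as low in C3Tag.

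Some retrotransposed genes were listed at levels close to or above their parent genes. Rps27rt, counted with the paralogs and lying on chromosome 9, stood at 17491 in PT and 16804 in Lung met of Her2, while Rps27 itself, on chromosome 3, stood at 92.2 and 96.3. The PT mean of the copy was 190-fold that of its parent in Her2, 50.5-fold in C3Tag and 214-fold in the comparison deposited under AKR. In these sequences, 91.1% of the 50-base words of Rps27rt also occur in Rps27 transcripts.

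The same was seen for Rps12l1, annotated as a processed pseudogene on chromosome 7, whose 50-base words all occur in Rps12 transcripts. Its PT mean was 7158 beside 823 for Rps12 in Her2, 8.69-fold that of the parent, and 10.8-fold in the comparison deposited under AKR. Rpl37rt was 4.54-fold above Rpl37 in PT of Her2, with 38.7% of its words in the parent. Rps3a2 and Rpl6l, with 76.7% and 61.8% of their words in the parent, stood at 0.82-fold and 0.84-fold of it. Rpl32l, with 19.4%, and Rps3a3, with 49.6%, stood far under Rpl32 and Rps3a1. Reads of near-identical genes can be assigned to either, so that the levels of these pairs are uncertain.

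The log2 ratios of a copy and its parent could differ where the words were shared. In the comparison deposited under AKR, Rps12 had -0.32 and Rps12l1 0.07, and the sum of both means had 0.04. Rps3a3 went from 1223 to 1986 (0.70) there while Rps3a1 had 0.21 and Rps3a2 0.14. For Rps27, which had -0.16 in C3Tag, Rps27rt had 0.06 and their sum 0.06.

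**Figure D5:**
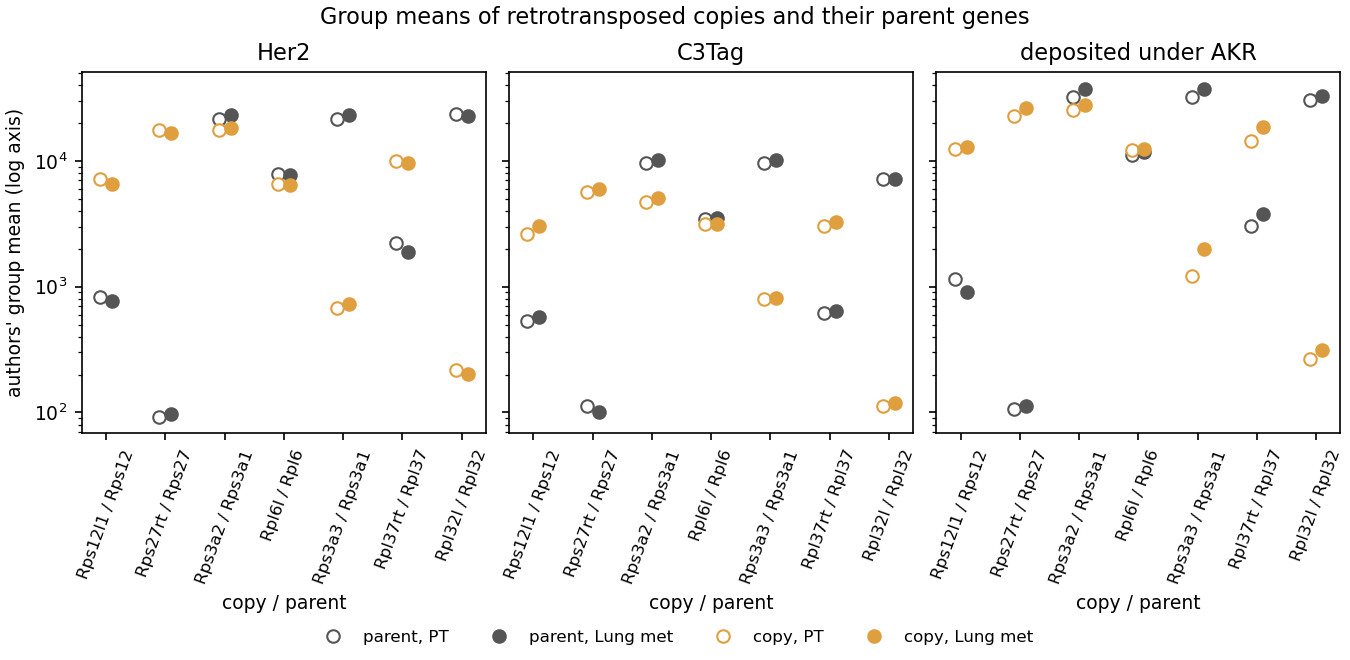
Group means on a log axis are drawn for 6 copies and Rps27rt (orange) and for their parent genes (grey), open points for PT and filled points for Lung met. The 3 comparisons that list all of these genes are shown. Rps27rt and Rps12l1 lie above their parents in every panel, Rps3a2 and Rpl6l lie close to theirs, and Rps3a3 and Rpl32l lie far under.

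Shared sequence was common in the core set. A median of 52.9% of the 50-base words of a core transcript also occurred in transcripts of other genes, from 0% to 98.6%, the latter for Rps27. Per kb of transcript, the PT mean in Her2 ranged from 239 for Rps2 to 45821 for Rpl32, although the proteins are used in equal numbers. The median PT mean per kb was 8571 for 34 members with under 50% shared words and 3461 for 43 members with at least 50%. In C3Tag these medians were 4497 and 1706, and in the comparison deposited under AKR 14663 and 7176. The Spearman rho of shared words and PT mean per kb was -0.41, -0.39 and -0.38 across the 77 core members.

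The medians of the log2 ratios lay closer together. For Her2 they were -0.05 in members under 50% and -0.07 in the others, for C3Tag 0.07 and 0.03, and for the comparison deposited under AKR 0.21 and 0.15. The rho of shared words with the distance of a log2 ratio from the median was 0.22, 0.18 and 0.27 (n = 77).

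The order of members was set side by side between comparisons. Over the 77 members listed in both, the largest Pearson r was 0.46, between C3Tag and SEAGN (Spearman rho 0.48). Her2 and C3Tag, both on FVB/NJ, gave 0.01 (n = 91), and BALB and SEAGN, which share the FVB parent, gave -0.004 with a rho of 0.26. The comparison deposited under AKR gave values between -0.29 and 0.13 with the other 4. Among core members alone, r was 0.42 for C3Tag and SEAGN (rho 0.46), 0.31 for Her2 and SEAGN (rho 0.27) and 0.12 for BALB and SEAGN (rho 0.39), each over 71 members. The comparison deposited under AKR gave core values between -0.15 and 0.14. The median range of a member over the 5 comparisons was 0.31, and 35 of 77 had a range under 0.3.

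Both ribosomal proteins outside the name rule that were compared lay within the range of the members. Fau, whose product is cleaved to the small subunit protein Rps30, had log2 ratios of 0.02, 0.14, 0.20, 0.13 and 0.48 in Her2, C3Tag, BALB, SEAGN and the comparison deposited under AKR. Rack1, a scaffold on the small subunit, had -0.02, -0.07, 0.12, -0.14 and 0.23.

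Elongation and pyrimidine-tract factors were measured for 10 or 11 of 11 genes, with median log2 ratios of 0.02, 0.04, 0.13, 0.06 and 0.00 in the same order, and none passed the 1.5-fold limit. Eef2, the ribosome translocase, had 0.08, 0.31, 0.21, 0.05 and -0.16. Eef1g, a subunit of the elongation factor 1 complex, had 0.12, 0.07, 0.18, 0.04 and 0.35, and Eef1e1, a partner of the multisynthetase complex, had 0.18, -0.23, 0.33, 0.31 and -0.03. Initiation factors, 29 or 30 of 30, had medians of -0.04, -0.02, 0.14, 0.11 and 0.07, and again none passed.

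Among the initiation factors, Eif4ebp1, the mTOR target that holds back cap-dependent translation, had 0.14, 0.20, 0.22, -0.03 and 0.19. Eif5 had 0.05, 0.19, 0.14, 0.25 and 0.03, and Eif5a, the hypusinated factor that aids elongation, -0.08, -0.03, 0.20, 0.11 and 0.38. Ribosome biogenesis genes, 26 or 27 of 27, had medians of -0.01, -0.05, 0.14, 0.07 and 0.06, with 1 past the 1.5-fold limit, Bysl at 0.65 in the comparison deposited under AKR. Bysl, a small subunit assembly factor, had -0.01, 0.14, 0.13 and 0.28 elsewhere, Rrp12, an export factor, 0.14, 0.02, 0.39, 0.36 and 0.32, and Nop10, a snoRNP protein, -0.002, -0.03, 0.19, 0.22 and 0.30.

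Mitochondrial ribosomal proteins and respiratory chain subunits had higher medians than the cytoplasmic set in the comparison deposited under AKR. The 78 mitochondrial ribosomal protein genes there had a median of 0.24, with 7 higher past the 1.5-fold limit, none lower, and 30 higher and 1 lower past the narrower one. The 75 oxidative phosphorylation genes had a median of 0.37, with 6 and 47 higher past these limits and none lower. Of all genes, 13.6% were higher past the 1.5-fold limit and 23.3% past the narrower one. In BALB, with medians of 0.07 and 0.12, the mitochondrial ribosomal proteins past the 1.5-fold limit were Mrps7, Mrpl12 and Mrpl38, all within 6 Mb of Rpl38. For Her2 the same medians were -0.10 and -0.12, for C3Tag -0.10 and -0.04, and for SEAGN 0.15 and 0.17. Her2 was thus the comparison in which the cytoplasmic set, the mitochondrial set and the respiratory set all had medians under 0. Of the respiratory genes, Atp5e had 0.90 in C3Tag and 0.63 in the comparison deposited under AKR, and Ndufa4l2, at 19.1 in PT and 85.0 in Lung met, had 2.15 in the latter.

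The tissue around the tumor cells differed between PT and Lung met in every comparison. Of 8 lung epithelium markers 4 were listed, all higher by at least 1.5-fold, with log2 ratios of their sums of 2.04 in Her2, 6.11 in C3Tag, 4.69 in BALB, 5.55 in SEAGN and 5.19 in the comparison deposited under AKR. Summed endothelium markers (5 of 5) gave 0.73, 1.62, 0.74, 0.84 and 1.96, and fibroblast markers (5 of 5) gave -1.09, -0.17, -1.66, -2.38 and -1.35. Fibroblast markers were split by the 1.5-fold limit in C3Tag, with 2 higher and 2 lower, and in the comparison deposited under AKR, with 1 higher and 4 lower. Summed T and B cell markers (3 to 5 of 8) gave 0.26, 0.51, 0.10, 0.54 and 0.91. The medians of their log2 ratios were 0.005, 0.09, 0.09, 0.48 and 0.96. In C3Tag 1 of them was higher and 1 lower by at least 1.5-fold. Summed macrophage markers (3 or 4 of 5) gave -0.02, 0.28, 0.12, 0.75 and 0.41. The medians of their log2 ratios were -0.13, 0.26, -0.08, 0.43 and -0.06. Sum and median thus differed in sign in BALB and in the comparison deposited under AKR. Mammary luminal keratins, Epcam and Elf5, of which 4 or 5 of 5 were listed, gave -0.02, -0.04, 0.22, 0.22 and 0.02. The C3Tag value combines 1 marker higher and 2 lower by at least 1.5-fold. Whether these epithelial markers follow the tumor cells alone in Lung met was not tested. Proliferation markers gave -0.22, -0.64, 0.13, 0.31 and -0.15. Skeletal muscle markers, of which 1 to 3 of 4 were listed, gave -4.28, -4.75, -5.85 and -3.25 but 1.24 in the comparison deposited under AKR, on sums between 6.58 and 1012. Their part in the ratios of the ribosomal protein genes was not tested.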

How the data were processed

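RNA-seq of bulk PT and Lung met was compared within each mouse model. Per the labels, libraries were stranded total RNA with ribosomal RNA depletion, and the submitters' processing notes name STAR 2.7.8a, DESeq2 and mm39. The study's methods state Partek Flow, mRNA libraries and another build, so that the build of the files is uncertain. The authors deposited, per gene, the least-squares group mean of normalized counts in PT and in Lung met, a normalized signal. How it was normalized is not given in the sources used here. The tables also hold the authors' p-values, false discovery rates and fold changes, which were not used, and the Myc table holds only such columns with gene names. No single-sample values were used, 0 such columns being present.

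From the means, the log2 ratio, medians, spreads and counts past a fold of 1.5 were computed in each comparison with pandas 2.3.3 and numpy 2.4.6 under Python 3.11.15, and correlations with scipy 1.17.1, by code tested on simulated data. Groups were taken from sample titles, which conflict with other labels for some PyMT-F1 samples. Positions and transcripts came from GENCODE M21 (GRCm38), matched by gene name, which placed 82.5% to 96.7% of the listed genes. Of the protein-coding principal transcripts, the best supported and then the shortest was used. Named members were the 3 highest and 3 lowest ratios of each comparison among means of at least 10, all past the fold in 2 or more comparisons, Rpsa and the stalk proteins, the paralogs, and Fau and Rack1. Some genes that this rule names are not reported here. For every other translation list they were the 3 genes furthest from 0 on average. Further members named beside a copy or for their position were chosen after their values were seen. The members and lists were chosen with earlier results of these data known. Alternatives were a pseudocount of 1, a mean minimum of 10, other scalings, other member sets and a narrower limit of 0.32 on the log2 scale and a fold of 2.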

Additional observations from a re-analysis of the deposited data

How the results depend on the processing

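The tolerance for a moved median was 0.1 on the log2 scale, which is as large as most of the medians, so that staying within it says little, and the medians of C3Tag and BALB, at 0.05 and 0.11, came as low as -0.01 and 0.03. Subtracting 1 constant from every gene cannot change the gap of the 40S and 60S medians. Subtracting the ratio of summed means, which the Gm22614 entry sets in C3Tag, moved the C3Tag median to 0.86, with 88 members higher and 0 lower, and the median of the comparison deposited under AKR to 0.085, with 2 members higher and 1 lower. Without the 10 genes of highest mean, the C3Tag PT share was 1.42%. The count of members lower in C3Tag fell to 0 without paralogs and other names, without copies as well, among members in all 5 comparisons and at a fold of 2. In the comparison deposited under AKR, 2 were higher among members in all 5 comparisons and also without paralogs, copies and other names, 25 were higher and 3 lower at the narrower limit of 0.32 on the log2 scale, and 1 was higher at a fold of 2. In BALB 0 were higher at a fold of 2, and in Her2 1 was lower at the narrower limit. Over all alternatives the medians ranged from -0.11 to -0.06 in Her2, -0.01 to 0.86 in C3Tag, 0.03 to 0.11 in BALB, 0.01 to 0.06 in SEAGN and 0.085 to 0.20 in the comparison deposited under AKR.

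No paired analysis was possible because only group means were at hand, although the titles pair PT and Lung met by mouse. For the same reason leaving out a replicate was not run, and what depth limits is unknown. Genes with low means, such as Rps4l, carry ratios of unknown precision.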
